A study of Mus musculus with 9 samples.

Results

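Whole retinas of Rb knockout mice (Rb KO) were compared with whole retinas of wild-type mice (WT) at postnatal day 8 (P8) on an Affymetrix whole-transcript mouse array. The comparison took the 3 arrays labelled Rb KO and the 3 labelled WT, 6 of the 9 arrays in the series, and every transcript cluster that the platform annotation gave 1 gene symbol, with the brightest probe set standing for a gene. That made 24259 genes. Both groups had the strain background C57Bl/6x129SvJ and the same age, and differed by genotype in the labels. The 3 remaining arrays, retinas labelled Rb/p107 DKO (a double knockout of Rb and p107), entered only through the shared estimate of the spread between arrays. The design text calls the arrays biological replicates. In which cells, at what age and by what means Rb had been removed is not given in the labels, and neither is the number of retinas behind an array.

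Rb is a pocket protein that holds E2F transcription factors in check, so that genes for DNA replication stay silent until a cell is committed to divide. Later cell cycle genes, those of mitosis, are kept silent in resting cells by the DREAM complex, which carries the related pocket proteins p107 or p130 together with repressive E2F and MuvB proteins. In the mouse retina most divisions have ended by the end of the first postnatal week. Rods, the most numerous cells, then build their outer segments and the phototransduction machinery, bipolar cells and Muller glia mature, and the vessels of the deeper layers grow in. The tissue was measured in bulk, so a lower reading of a cell type's genes cannot tell fewer cells from less RNA per cell.

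Values are log2 intensities, on which a difference of 1 is a doubling. Each array carried negative control probe sets, and a reading above their 95th percentile on the same array (7.94 to 8.5 over the 6 arrays) is called above background here. By that measure 5995 genes were above background on all 6 arrays, and in 15101 neither group had any array above it. Correlations over all genes were 0.992 to 0.996 between WT arrays, 0.996 to 0.997 between Rb KO arrays and 0.976 to 0.985 between a WT and a Rb KO array. Rods, cones, bipolar, amacrine and ganglion cells were all represented in WT, where each measured marker of these types was above background on all 3 arrays. The 3 muscle markers and the 1 measured erythrocyte marker, Alas2, were above background on none of the 6 arrays. The same held for 2 of 4 lens and 3 of 4 microglia markers. The globin markers Hba-a1 and Hbb-bt were not among the genes tested. Genes of chromosomes 1, 2 and 3 are nearly all not analysed here.

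The brightest probe set of Rb1 itself read 10.01, 10.19 and 10.46 in WT and 9.85, 10.02 and 9.86 in Rb KO. The groups overlapped, and the difference of -0.31 (SE 0.12, adjusted p = 0.0793) did not pass. Leaving out WT replicate 1 (adjusted p = 0.0302) or dim probe sets (adjusted p = 0.0394) made it pass, and the mean over all its probe sets turned the sign (0.68, adjusted p = 0.00963). Where these probe sets lie in the transcript is not known here, so they do not check the labels.

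Genes were called at a Benjamini-Hochberg adjusted p under 0.05 in limma, fitted across all genes. Against WT, 24.4% of the genes were called in Rb KO, 10.2% as higher (2465) and 14.3% as lower (3458), and the arrays of the groups did not overlap for 35.8%. The median log2 difference over all genes was -0.05. Where the size could be measured, that is among the 5995 genes above background on all 6 arrays, 16.7% rose and 21% fell. Of these, 72 rose and 112 fell at least 2-fold. A further 270 rises started from, and 648 falls ended at, readings that were not above background on any array of the lower group. For these a fold against the background percentile is given as a lower bound, written "at least". It is taken from group means and is no confidence limit. The remaining calls include 835 rises and 1282 falls among genes at background in both groups, and these have no measured size.

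**Figure D1:**
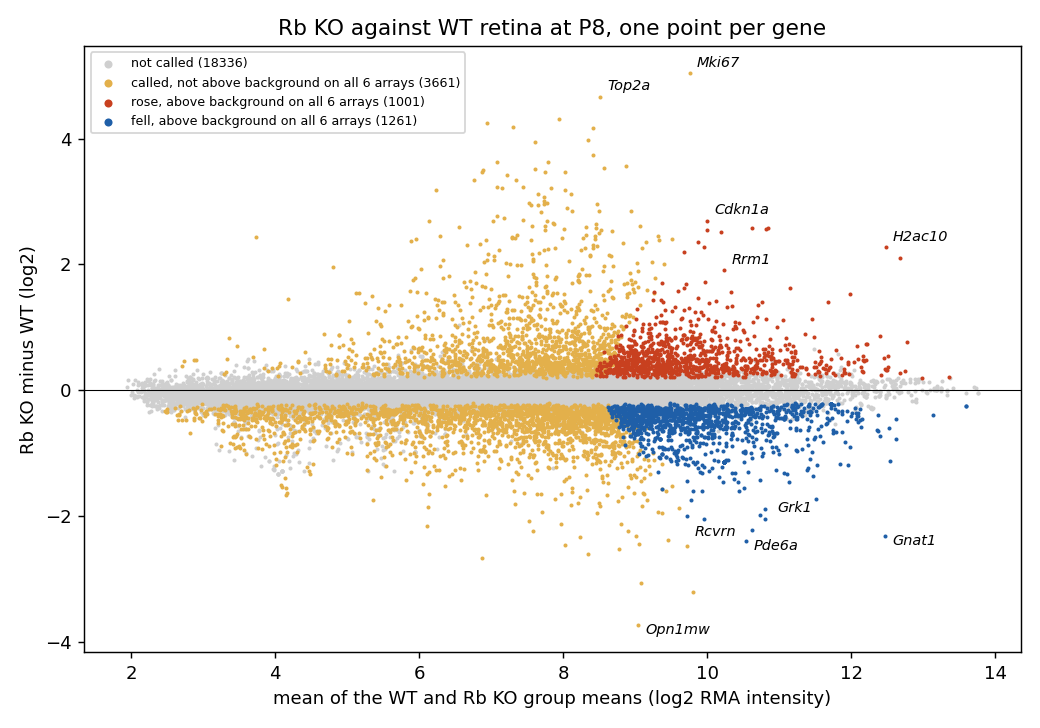
Difference between the Rb KO and WT group means (log2, vertical) against the mean of both (log2 intensity, horizontal), 1 point per gene for 24259 genes; red and blue points were called and lay above background on all 6 arrays (1001 rose, 1261 fell). The points beyond 3 on the vertical axis, such as Mki67, Top2a and Opn1mw, are yellow, because they were not above background on all 6 arrays.

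Among genes measured on both sides, the largest rises were Cdkn1a, which encodes the CDK inhibitor p21, and Hmgb2, a chromatin protein of dividing cells. Cdkn1a read 8.70, 8.79 and 8.48 in WT and 11.46, 11.37 and 11.22 in Rb KO, a difference of 2.69 (SE 0.11, adjusted p = 7.62e-08). Hmgb2 read 8.70, 8.95 and 8.52 and 11.36, 11.37 and 11.07, a difference of 2.54 (SE 0.13, adjusted p = 3.06e-07). In both genes the Rb KO arrays lay close together and far above WT. Rrm1, the large subunit of ribonucleotide reductase, followed at 1.91, the replication fork protein gene Tipin at 1.71, the nuclear lamina gene Tmpo at 1.63, the deubiquitinase gene Usp1 at 1.57 and the corepressor gene Rcor2 at 1.44. Among rises from background the chromatin ATPase gene Atad2 was at least 4.39-fold higher and the mitotic kinase gene Pbk at least 3.86-fold higher. Expressed sequence AA623943, measured on both sides, stood at 2.35. Pcna-ps2, annotated as a pseudogene, stood at 1.52, and near-identical sequence of the gene for the sliding clamp PCNA may share its probes.

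The largest falls measured on both sides included many photoreceptor genes. Pde6a, the catalytic rod phosphodiesterase subunit, read 11.67, 11.80 and 11.74 in WT and 9.14, 8.79 and 10.11 in Rb KO, a difference of -2.39 (SE 0.35, adjusted p = 0.000654). Gnat1, the rod transducin alpha subunit, read 13.58, 13.66 and 13.65 and 11.04, 10.88 and 12.04, a difference of -2.31 (SE 0.37, adjusted p = 0.0012). Neither gene had overlapping groups, and in both the third Rb KO array lay above the other two by about 1 log2 unit. Falls outside the lists used below were found in Plpp2, a lipid phosphatase gene, which read 10.69, 10.97 and 10.51 in WT and 8.70, 8.46 and 9.01 in Rb KO, Wdr17 (-1.74), Rtbdn, which encodes the photoreceptor protein retbindin (-1.60), and Sema7a, a semaphorin gene (-1.57). Chrna6, a nicotinic receptor subunit gene, stood at -1.59. Among falls to background Faim2, which encodes an inhibitor of death receptor signals in neurons, was at least 2.42-fold lower, Lrtm1 at least 4.69-fold lower and the phosphatase gene Ppm1n at least 2.07-fold lower.

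Cell cycle genes are described first, with the promoter stretches that the factors named above can read. RefSeq promoters of assembly GRCm38.p6 (250 bases before to 50 after a start) were matched by symbol to 14334 of the genes. The E2F letters TTTCCCGC or TTTGGCGC, on either strand, were in the windows of 22.22% of 54 measured genes of licensing, fork and nucleotide supply with a promoter, against 2.08% of all genes tested and 1.56% of all 32851 promoters. They were in 6.51% of the promoters of genes that rose and 1.34% of those that fell. The letters of the CHR element, TTTGAA, on either strand, were in 47.59% of 83 mitosis genes, against 16.08% of all genes tested and 17.89% of all promoters, and in 15.04% of genes that rose. The NF-Y letters CCAAT were in 61.75% of the mitosis genes, against 38.69% of all genes tested and 37.41% of all promoters. Without the 50 bases after the start, 12.96% of the 54 genes held the E2F letters, against 1.75% of all genes tested. In that window 28.31% of the 83 held the CHR letters and 54.52% the NF-Y letters, against 14.51% and 35.78% of all genes tested. A gene with several windows counts by the share of them that match, and a match is a run of letters, not a measured site. None of the motifs searched contains another. The following stretches are shown because their genes had large rises and a match before the start; the E2F or CHR letters are in capitals, with 20 bases on each side, as read along the strand of the gene.
Cdc6: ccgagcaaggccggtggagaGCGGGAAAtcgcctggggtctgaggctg
Mcm5: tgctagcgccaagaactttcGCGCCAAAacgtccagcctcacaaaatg
Tmpo: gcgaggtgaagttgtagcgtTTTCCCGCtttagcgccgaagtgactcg
Mki67: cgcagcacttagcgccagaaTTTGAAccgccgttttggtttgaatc
Top2a: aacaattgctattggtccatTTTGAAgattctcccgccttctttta
The Cdc6 stretch is at chr11:98907993-98908040 (plus strand, 130 bases before the start), that of Mcm5 at chr8:75109340-75109387 (plus strand, 141 bases before the start), and that of Tmpo at chr10:91170718-91170765 (minus strand, 187 bases before the start). The Mki67 stretch is at chr7:135716470-135716515 (minus strand, 110 bases before the start) and that of Top2a at chr11:99024343-99024388 (minus strand, 173 bases before the start). The Mki67 stretch holds the CHR letters again, in lower case, near its end. Mki67, the marker of cycling cells, read 7, 7.48 and 7.24 in WT and 12.33, 12.45 and 12.06 in Rb KO. Its WT arrays were all at background, and the rise was at least 17.5-fold.

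Of the E2F and DP transcription factors, 6 of 8 rose, at a median difference of 0.94. Of these 8 genes 4 were at background in WT, and the 3 measured on both sides had a median of -0.05. E2f8, a repressive E2F, was at background in WT and rose at least 4.56-fold. Tfdp1, the DP partner with which E2F proteins bind DNA, read 10.45, 10.51 and 10.38 in WT and 11.11, 11.17 and 11.02 in Rb KO, a rise of 0.66 (SE 0.073, adjusted p = 0.00011) in groups that did not overlap. E2f4, the E2F of resting cells, stood at -0.05 and did not pass. The 1 fall was the activator E2f3 (-0.30), a call that ended without Rb KO replicate 2 or 3 or Rb/p107 DKO replicate 1 or 3 or WT replicate 1 or 2 or in the fit of 6 arrays or with the mean of probe sets or with the control separation as a covariate (adjusted p = 0.0504 to 0.218).

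Origin licensing loads the MCM helicase onto DNA before S phase, and 9 of 10 genes of this step rose, with none lower and a median of 1.73. Of these 10 genes 3 were at background in both groups and 4 in WT, and only 1 was measured on both sides. The median is therefore no measured size. Mcm5, a helicase subunit whose E2F letters are shown above, read 7.48, 7.79 and 7.26 in WT and 10.48, 10.53 and 10.08 in Rb KO. The WT arrays were all at background and the Rb KO arrays all above it, a rise of at least 4.64-fold. Its partner Mcm2 rose at least 4.68-fold and the loader Cdc6 at least 2.18-fold, and Orc3, a subunit of the origin recognition complex, stood at 0.07 and did not pass. At the replication fork 32 of 34 genes rose, at a median of 1.14, and among them were polymerase, primase and clamp loader subunits. Of these rises 7 were at background in both groups, and the 9 fork genes measured on both sides had a median of 0.59. Tipin, which steadies stalled forks, read 8.53, 8.54 and 8.47 in WT and 10.17, 10.48 and 10.02 in Rb KO (1.71 (SE 0.12, adjusted p = 2.81e-06)). The DNA polymerase delta subunit Pold3 stood at 0.69 and the clamp loader subunit Rfc1 at 0.53. The 1 fork gene that fell was Rpa1, the large subunit of the single-strand binding protein (-0.28), a call that ended without Rb KO replicate 1 or WT replicate 1 or in the fit of 6 arrays or with renewed quantile normalization or with the control separation as a covariate (adjusted p = 0.0713 to 0.161). Its partner Rpa2 rose (1.26), with WT readings above background on only some arrays.

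Of 20 genes that supply deoxynucleotides and one-carbon units, 16 rose and 2 fell, at a median of 0.62. Rrm1 read 9.29, 9.39 and 9.17 in WT and 11.16, 11.45 and 10.97 in Rb KO (1.91 (SE 0.12, adjusted p = 1.49e-06)), and its partner Rrm2 rose at least 5.13-fold. Dck, which salvages deoxynucleosides, stood at 1.06 and the serine hydroxymethyltransferase gene Shmt2 at 0.83. Steps of purine synthesis rose too, Gart by 0.56 and Paics by 0.46. The falls were Impdh1 (-1.02 (SE 0.13, adjusted p = 0.000288)), the first enzyme of guanine nucleotide synthesis, which photoreceptors carry at a high level, and the nucleotide kinase gene Nme1 (-0.41). Rrm2b, the p53-dependent reductase subunit, stood at -0.05 and did not pass.

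Mitosis genes rose in each of the 4 lists that hold them. All 12 mitotic kinesins rose, at a median of 2.66, while none of 20 kinesin, dynein and dynactin genes of axonal and ciliary transport rose and 8 fell, at a median of -0.10. None of the 12 mitotic kinesins was measured on both sides: 10 were at background in WT and 1 in both groups. Their median is therefore no measured size. Kif11, the motor that pushes spindle poles apart, read 6.97, 7.26 and 7.05 in WT and 10.53, 10.93 and 10.49 in Rb KO. All WT readings were at background, and the rise was at least 5.66-fold. Among the transport motors Kif5a, which drives axonal transport in neurons, fell (-0.59 (SE 0.1, adjusted p = 0.00219)), as did the dynactin subunit Dctn1 (-0.58). With Rb KO replicate 3 or with WT replicate 2 left out, 1 transport motor rose.

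Of 26 kinetochore and centromere genes 24 rose, at a median of 1.41, but 9 of these were at background in both groups. Ska2, which ties microtubules to the kinetochore, was measured on both sides and rose (0.84 (SE 0.087, adjusted p = 7.28e-05)), and 1 gene of this class fell without WT replicate 3. Of 28 cohesin, condensin and cytokinesis genes 24 rose, at a median of 1.39. The 11 of these 28 genes that were measured on both sides had a median of 0.40. Prc1, the bundler of the spindle midzone, rose at least 4.55-fold and the topoisomerase Top2a at least 6.52-fold. Of the cohesin ring members, Rad21 read 10.87, 10.96 and 10.89 in WT and 11.61, 11.59 and 11.40 in Rb KO (0.62 (SE 0.077, adjusted p = 0.000235)), and Smc1a stood at 0.62. Top2b, the topoisomerase of resting neurons, stood at -0.04 and the cohesin subunit Stag2 at -0.08, and neither passed. Without Rb KO replicate 3, 1 gene of this class fell.

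Most core subunits of the anaphase-promoting complex, the ubiquitin ligase that ends mitosis, did not pass. The complex is listed with the mitotic kinases and the spindle checkpoint, where 22 of 34 genes rose, none fell and the median was 0.81. Of these rises 5 were at background in both groups, and the 13 listed genes measured on both sides had a median of 0.09. The kinase activator Ccnb2 was at background in WT and rose at least 3.48-fold, and the ubiquitin-conjugating enzyme Ube2s rose by 0.83. Of the core subunits of the complex Anapc5 rose (0.49 (SE 0.086, adjusted p = 0.00208)) and Cdc27 rose (0.36). Anapc13 read 11.74, 11.70 and 11.52 in WT and 11.98, 11.66 and 11.67 in Rb KO, groups that overlapped. It stood at 0.12, Anapc7 at 0.04, Anapc10 at -0.01, Anapc4 at -0.09, Cdc23 at -0.06 and Cdc26 at 0.09, and none of these passed. Fzr1, the coactivator of the complex in resting cells, did not pass either (0.07).

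Histone genes that are transcribed with S phase rose in 19 of 21 cases, at a median of 1.76, but 10 of the rises were at background in both groups. Such histone genes sit in clusters of near-identical copies, so that single members are uncertain. H2ac10, a member measured on both sides, read 11.41, 11.51 and 11.11 in WT and 13.71, 13.64 and 13.51 in Rb KO (2.28 (SE 0.1, adjusted p = 1.75e-07)), and a histone H2A gene listed under the older symbol Hist1h2aj stood at 2.11. Of the 6 histone genes expressed outside S phase 4 rose, at a median of 0.65. H2ax, whose phosphorylated form marks DNA breaks, stood at 1.46 and the variant gene Macroh2a2 at 1.41, while Macroh2a1 (0.13) did not pass. H1f2, a linker histone of the S phase list, stood at -0.39 and did not pass. Without WT replicate 3, 1 histone gene of S phase fell.

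Of 33 chromatin genes 19 rose, 2 fell, and the median was 0.37. Dnmt1, the methyltransferase that copies DNA methylation at the fork, read 10.11, 10.18 and 10.05 in WT and 11.38, 11.38 and 11.10 in Rb KO (1.17 (SE 0.096, adjusted p = 1.39e-05)). Ezh2, the Polycomb histone methyltransferase of dividing cells, rose by 1.39 (adjusted p = 2.67e-06), while its partners Suz12 (0.15) and Eed (0.14) did not pass. The heterochromatin proteins Cbx5 and Cbx1 rose by 0.48 and 0.48 and the deacetylase Hdac2 by 0.44.

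Genes of homologous recombination and the Fanconi pathway rose in 22 of 28 cases (median 1.03), but 12 of the rises were at background in both groups. Fance, a Fanconi core gene measured on both sides, was the 1 fall (-0.50 (SE 0.1, adjusted p = 0.00428)), and Fancm rose (0.61). Of 16 checkpoint and mismatch repair genes 10 rose (median 0.37), with the break-signalling genes Mdc1 at 1.08 and Rnf168 at 0.70. Rad17 (-0.04), Rad1 (0.06), Rnf8 (-0) and Msh3 (0.10) did not pass. Without WT replicate 1, 1 gene of the latter group fell.

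Both drivers and brakes of G1 rose: 9 of 17 G1 cyclin, CDK and CDK inhibitor genes, with a median of 0.50. Cdk4, the kinase that phosphorylates Rb, read 9.61, 9.82 and 9.59 in WT and 11.15, 11.08 and 10.82 in Rb KO (1.34 (SE 0.1, adjusted p = 9.04e-06)). The inhibitor genes Cdkn2c (p18, at least 1.87-fold) and Cdkn1b (p27, 0.50 (SE 0.085, adjusted p = 0.00169)) rose beside Cdkn1a. Cdkn2a (0.22) and Cdkn2b (-0.01), which encode the p16, p19Arf and p15 proteins, were at background in both groups and did not pass. The p130 gene Rbl2 read 9.06, 9.26 and 9.19 in WT and 8.93, 9.04 and 9.02 in Rb KO, and its difference of -0.17 did not pass. The 1 fall was Ccnd3, a difference between background readings (-0.28), and the call ended without Rb KO replicate 2 or 3 or any Rb/p107 DKO replicate or WT replicate 1 or 2 or in the fit of 6 arrays or with the replicate block or with the control separation as a covariate (adjusted p = 0.0637 to 0.254).

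Of 24 p53 targets, Cdkn1a among them, 8 rose and 4 fell, with a median of -0.03. Mdm2, which encodes the ubiquitin ligase of p53, rose by 0.80 (adjusted p = 0.000156). The death genes Bbc3 (-0.04) and Pmaip1 (-0.18) and the stress genes Sesn2 (-0.11) and Ddit4 (-0.18) did not pass. The falls numbered 2 to 3 with any 1 array left out, 2 of them without Rb KO replicate 1 or 2, Rb/p107 DKO replicate 2 or 3, or WT replicate 1. In the fit of 6 arrays, with renewed quantile normalization or with the control separation as a covariate 1 fell. Of 18 BCL2 family and caspase genes 2 rose and 2 fell, close to the shares of all genes. Casp2 rose by 0.99 (SE 0.09, adjusted p = 2.97e-05), and the caspase inhibitor Xiap fell by 0.57 (SE 0.091, adjusted p = 0.00109). Without Rb KO replicate 1 or WT replicate 3, 1 gene of this family rose.

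**Figure D2:**
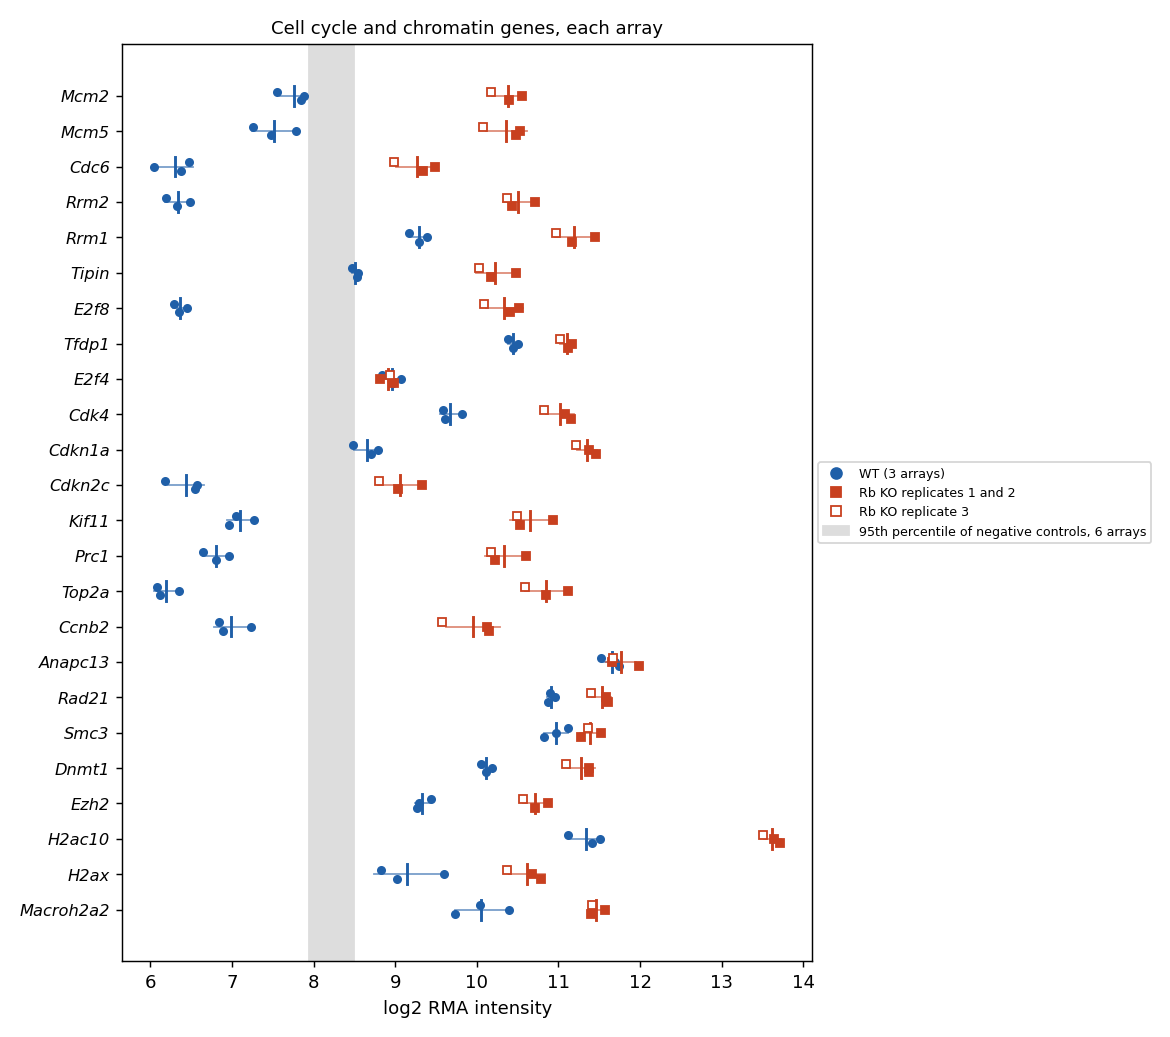
Log2 intensity on each of the 6 arrays for 24 cell cycle and chromatin genes; circles are WT, squares Rb KO, open squares Rb KO replicate 3, vertical bars group means, horizontal lines 1 SD on each side (n = 3), and the grey band the range of the background percentile. WT circles of Mcm2, Mcm5, Cdc6, Rrm2, E2f8, Cdkn2c, Kif11, Prc1, Top2a and Ccnb2 lie below the band, and the groups overlap in E2f4 and Anapc13.

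Genes of retinal progenitors rose in 13 of 19 cases, none fell, and the median was 0.60. Fabp7, a fatty acid binding protein of progenitors, read 10.12, 10.51 and 10.39 in WT and 11.90, 12.01 and 11.99 in Rb KO (1.63 (SE 0.12, adjusted p = 5.45e-06)). Sox9, a factor of progenitors and Muller glia, read 9.33, 9.54 and 9.48 and 10.76, 10.73 and 10.26 (1.13 (SE 0.13, adjusted p = 0.000159)). In both the groups were apart, and for Sox9 Rb KO replicate 3 was the lowest of the mutant arrays. Six6 rose by 0.84 and Nr2e1, the Tailless gene, by 0.68, while Rax (0.18), Lin28b (-0.01) and Hmga2 (0.03) did not pass, the last pair at background. Foxn4, which primes progenitors for amacrine and horizontal fates, rose at least 2.12-fold. Without WT replicate 3, 1 progenitor gene fell.

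Proneural and other basic helix-loop-helix factors rose in 13 of 20 cases and 3 fell (median 0.51). Olig2, a factor of late progenitors, rose at least 2.96-fold, Neurod4 by 0.70 and the E-protein genes Tcf3 and Tcf4 by 0.88 and 0.81. In the Notch pathway, which keeps progenitors from differentiating, 8 of 23 genes rose and none fell (median 0.19). The rises were in ligand genes, target genes and the DNA-binding partner Rbpj (0.46 (SE 0.078, adjusted p = 0.00166)): Hes1 read 8.66, 8.72 and 8.48 in WT and 9.22, 9.50 and 9.40 in Rb KO (0.75 (SE 0.11, adjusted p = 0.000517)). The processing and trafficking genes Adam10 (0.20), Adam17 (0.04), Mib1 (0.03), Numb (-0.02) and Rfng (-0.03) did not pass.

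Of 13 NFI and Sox factors 7 rose (median 0.48), and Sox4, a factor of newborn neurons, read 10.56, 10.52 and 10.41 in WT and 11.62, 11.74 and 11.48 in Rb KO (1.12 (SE 0.094, adjusted p = 1.62e-05)). Nfix and Nfib, which late progenitors use to leave the cell cycle, stood at 1.33 and 1.29, while Nfia (0.14) and Nfic (0.09) did not pass. Without WT replicate 1, 1 gene of this group fell. Prdm13, a factor of amacrine precursors, read 8.77, 9.03 and 8.64 in WT and 10.47, 10.59 and 10.10 in Rb KO (1.57 (SE 0.14, adjusted p = 1.96e-05)), and Barhl2 of the same lineage rose by 1.20. Among 23 other neuronal homeobox factors 5 rose and 4 fell, beside 10.2% and 14.3% of all genes. None of these factors fell without Rb KO replicate 1 or without Rb KO replicate 2. Without WT replicate 1, 3 rose and 1 fell.

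Hedgehog signals drive progenitor division through Smoothened and the Gli factors. Smo read 8.29, 8.69 and 8.48 in WT and 10.12, 10.16 and 9.85 in Rb KO (1.56 (SE 0.12, adjusted p = 5.9e-06)), groups far apart. The coreceptor gene Cdon rose by 1.08 (SE 0.12, adjusted p = 9.94e-05), and Gli3 rose at least 1.57-fold. The genes that report active signalling did not pass: Gli1 stood at 0.01, at background in both groups, and the receptor gene Ptch1 at -0.07 (SE 0.077, adjusted p = 0.599). Myc and Mycn, which drive growth and division, rose at least 1.55-fold and 1.31-fold, and their partner Max fell by 0.60 (SE 0.092, adjusted p = 0.000874). In this list of 33 genes, which holds the FGF pathway as well, 9 rose and 5 fell, and 3 fell without Rb KO replicate 1 or 2 or WT replicate 1 or 2. Of 35 Wnt and BMP genes 8 rose and 1 fell. The stem cell receptor gene Lgr5, which amacrine cells also carry, rose by 1.13 (SE 0.16, adjusted p = 0.000618), and the Wnt target Axin2 (0.14) did not pass. In that list none fell without Rb KO replicate 1 or 2, and 2 fell without WT replicate 3.

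Photoreceptor genes are shown with the promoter stretches that hold the CRX letters TAATCC. CRX is the homeobox factor that, with NRL in rods, turns on photoreceptor genes. These letters, on either strand, were in the windows of 32.58% of 44 measured genes of the rod, recovery, outer segment and cone lists with a promoter, against 6.8% of all genes tested and 7.06% of all promoters. They were in 7.57% of the promoters of all genes that fell and 4.96% of those that rose. The NRL letters TGCTGA were in 23.48% of the 44, against 18.4% of all genes tested and 19.48% of all promoters. Of the largest rises measured on both sides 3 of the 10 genes with a promoter (Hmgb2, AA623943 and Prdm13) held the CRX letters, and of the largest such falls 3 of 8 (Aipl1, Wdr17 and Rtbdn). Without the 50 bases after the start the CRX share of the 44 was 32.58% too, against 6.2% of all genes tested, and the NRL share 18.94%, against 15.2%. The stretches below belong to genes that fell and hold a match before the start; the capitals mark the CRX letters as they lie on the strand of the gene, with 20 bases on each side.
Guca1a: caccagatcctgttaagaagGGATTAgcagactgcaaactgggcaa
Aipl1: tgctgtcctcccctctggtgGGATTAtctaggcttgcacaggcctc
Cngb1: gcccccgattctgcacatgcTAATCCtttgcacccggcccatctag
Wdr17: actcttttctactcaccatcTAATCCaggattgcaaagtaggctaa
Rtbdn: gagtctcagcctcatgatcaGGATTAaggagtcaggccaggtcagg
The Guca1a stretch is at chr17:47400638-47400683 (minus strand, 51 bases before the start), that of Aipl1 at chr11:72037537-72037582 (minus strand, 47 bases before the start) and that of Cngb1 at chr8:95306618-95306663 (minus strand, 52 bases before the start). The Wdr17 stretch is at chr8:54718757-54718802 (minus strand, 108 bases before the start) and that of Rtbdn at chr8:84946852-84946897 (plus strand, 113 bases before the start).

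All 9 measured genes of the rod transduction cascade fell, at a median of -1.31. Cngb1, a subunit of the channel that closes in light, read 10.53, 10.75 and 10.50 in WT and 9.22, 8.88 and 9.74 in Rb KO (-1.31 (SE 0.21, adjusted p = 0.00117)). Pde6g, the inhibitory phosphodiesterase subunit, read 11.85, 11.93 and 11.82 and 10.46, 9.84 and 10.93 (-1.46 (SE 0.26, adjusted p = 0.00216)). In each of these genes all 3 Rb KO arrays lay below all WT arrays, and replicate 3 was the highest of the Rb KO arrays. Gnb1, the transducin beta subunit that other cells also use, stood at -0.40, the smallest fall of the list, and its call ended without Rb KO replicate 1 or 2 or with the control separation as a covariate (adjusted p = 0.0587 to 0.0683).

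Genes that shut the response off and reset calcium fell in 14 of 15 cases (median -1.25). Grk1, the rhodopsin kinase, read 11.66, 11.79 and 11.72 in WT and 9.64, 9.36 and 10.22 in Rb KO (-1.98 (SE 0.28, adjusted p = 0.000523)). Rcvrn, the calcium sensor that restrains it, read 11.77, 11.79 and 11.66 and 9.34, 8.95 and 10.26 (-2.22 (SE 0.32, adjusted p = 0.000604)). Rdh12, which reduces the spent retinal, stood at -1.88, the GTPase accelerator Rgs9 at -1.01 and its partner Gnb5 at -1.33. Guca1a, whose promoter stretch is printed above, encodes a guanylate cyclase activator and fell at least 1.8-fold, and Guca1b, of the same family, fell at least 3.15-fold.

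Of 18 genes for outer segment structure 15 fell, none rose, and the median was -0.95. Aipl1, the chaperone of phosphodiesterase, read 11.85, 11.96 and 11.68 in WT and 9.71, 9.26 and 10.40 in Rb KO (-2.04 (SE 0.3, adjusted p = 0.000687)). The disc rim genes Prph2 and Rom1 stood at -1.13 and -1.09, the disc-forming gene Prom1 at -0.93 and the matrix gene Impg1 at -1.42. Samd11 (-0.33) and Mak (-0.45) did not pass, and Rp2 (0.09) was at background. Of 42 genes of the connecting cilium and its transport trains 17 fell and 3 rose, at a median of -0.24. The BBSome genes Bbs9 (-0.92 (SE 0.15, adjusted p = 0.00109)), Bbs4 (-0.68), Bbs2 (-0.61) and Ttc8 (-0.58) were among the falls, and the transport gene Ift27 rose (0.49). Rises numbered 5 without Rb KO replicate 1, and 1 without Rb KO replicate 3 or WT replicate 3, and 8 cilium genes fell with the control separation as a covariate.

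Cone genes fell in 12 of 17 cases (median -0.94). The short-wavelength opsin gene Opn1sw read 11.02, 11.16 and 11.04 in WT and 9.61, 9.61 and 9.80 in Rb KO (-1.40 (SE 0.15, adjusted p = 8.29e-05)). Kcnv2, a potassium channel subunit of both photoreceptor types, stood at -1.55, and Opn1mw fell at least 5.72-fold. The call of the 1 rise, Otop3 (0.47, above background on only some arrays), ended without Rb KO replicate 1 or 3 or WT replicate 3 (adjusted p = 0.0511 to 0.0688).

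The factors that make photoreceptors moved both ways, 4 up and 6 down of 15. Otx2 and Prdm1, which act in newly made photoreceptor precursors, rose. Prdm1 read 9.18, 9.20 and 9.24 in WT and 10.36, 10.34 and 10.24 in Rb KO (1.10 (SE 0.09, adjusted p = 1.29e-05)), and Otx2 read 10.81, 10.92 and 10.82 and 11.19, 11.28 and 11.35 (0.42 (SE 0.082, adjusted p = 0.0035)). Nrl, which sets rod fate, read 9.92, 10.01 and 9.90 and 9.04, 8.80 and 9.30 (-0.90 (SE 0.13, adjusted p = 0.000622)). Rora fell by 1.04 (SE 0.14, adjusted p = 0.000353), Casz1 by 0.47 and Esrrb, a nuclear receptor of rods, at least 1.56-fold. Crx read 12.25, 12.33 and 12.31 and 11.74, 11.70 and 12.07 in groups that did not overlap, at -0.46 (SE 0.12, adjusted p = 0.0196), and its call ended without Rb KO replicate 1 or 2 or WT replicate 3 or with renewed quantile normalization or with the control separation as a covariate (adjusted p = 0.0507 to 0.0958). The count of rises was 2 without Rb KO replicate 2 or WT replicate 1. Of 19 genes that handle retinoids 9 fell and 1 rose, among them Rlbp1 (-0.73) and Aldh1a1 (-1.05) of glia and other inner cells and the reductase gene Dhrs3 (-1.12). The call of the 1 rise of that list, Crabp1 (0.55), ended without Rb KO replicate 1 or 2 or Rb/p107 DKO replicate 3 or WT replicate 1 or 3 (adjusted p = 0.0577 to 0.159).

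ON bipolar cells sense rod glutamate through the receptor mGluR6, and 15 of 18 genes of this cascade fell, with none higher and a median of -0.87. The receptor gene Grm6 read 10.70, 10.92 and 10.83 in WT and 9.62, 9.24 and 10.24 in Rb KO (-1.11 (SE 0.25, adjusted p = 0.00752)). Prkca, the kinase used to mark rod bipolar cells, read 10.83, 11.10 and 11.09 and 9.59, 9.46 and 10.01 (-1.32 (SE 0.18, adjusted p = 0.000363)). Gpr179, which anchors the cascade, stood at -1.19. The groups did not overlap in any of these 3 genes, and the broadly used G protein subunit Gnao1 (-0.02) did not pass. Genes of bipolar fate and subtypes fell in 12 of 22 cases and rose in 4 (median -0.57). The rises, Nfib, Prdm8 (0.56), Six3 and Otx2, are genes that other retinal cells also express.

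At the ribbon synapse and other presynaptic sites 20 of 31 genes fell and 1 rose (median -0.44). Slc17a7, which loads glutamate into vesicles of photoreceptors and bipolar cells, read 11.24, 11.32 and 11.16 in WT and 9.78, 9.12 and 10.03 in Rb KO (-1.60 (SE 0.24, adjusted p = 0.000879)). Cplx4, the complexin of ribbon synapses, read 12.38, 12.44 and 12.31 and 10.53, 10.38 and 11.02 (-1.74 (SE 0.22, adjusted p = 0.000285)). Both had groups apart, with replicate 3 the highest Rb KO array. Rims2, a scaffold of the active zone, stood at -0.83 and the matrix gene Egflam, which encodes pikachurin, at -0.58. Syn1, the synapsin of conventional synapses, stood at -0.07 and Pclo at -0.06, and neither passed. The call of the 1 rise, Syn3 (0.30), ended without WT replicate 1 or with the control separation as a covariate (adjusted p = 0.0501 and 0.0606), and 2 genes of the list rose without WT replicate 2.

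**Figure D3:**
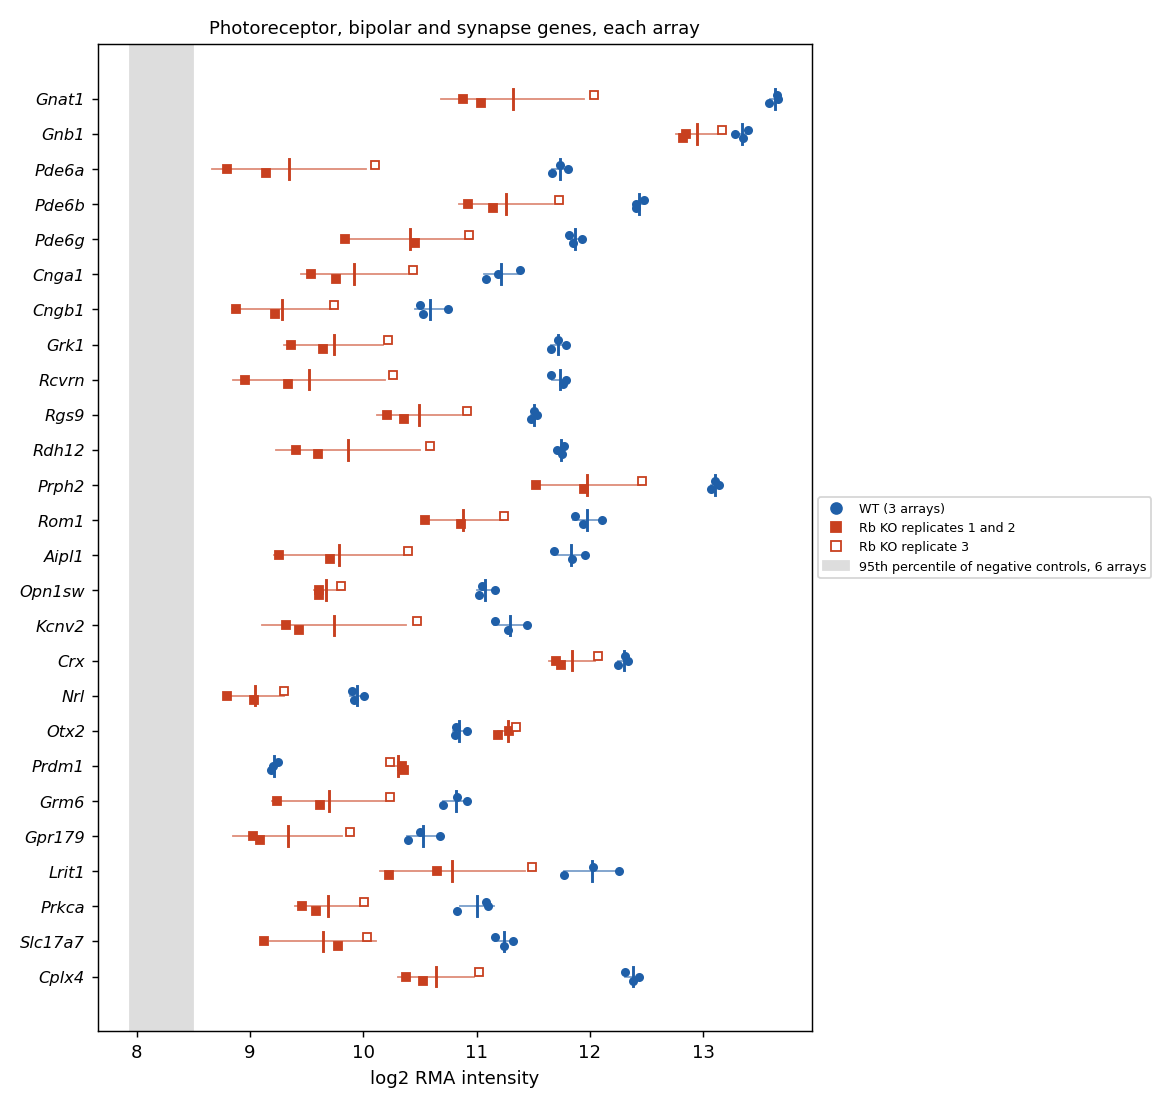
Log2 intensity on each of the 6 arrays for 26 genes of photoreceptors, bipolar cells and synapses, drawn as in the plot of cell cycle genes (bars are means, lines 1 SD, n = 3). In 25 of them, all but Prdm1, the open square of Rb KO replicate 3 lies to the right of the other Rb KO squares; Otx2 and Prdm1 lie above WT and the other 24 below it.

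Gene lists of the inner retina differed in direction. Amacrine genes rose in 7 and fell in 6 of 19 cases (median 0.03), and 4 rose without Rb KO replicate 1. Of these amacrine calls 6 were at background in both groups. Of the 8 amacrine genes measured on both sides 5 rose and 1 fell (median 0.34). Ebf3 and Ebf1, factors of amacrine and ganglion cells, rose by 1.02 and 0.76. Calb2, which encodes calretinin, read 11.69, 11.60 and 11.48 in WT and 10.12, 10.19 and 10.64 in Rb KO (-1.27 (SE 0.13, adjusted p = 7.66e-05)), and the glycine transporter gene Slc6a9 stood at 0.05 and did not pass. Of 12 starburst amacrine genes 6 fell, and of 10 horizontal cell genes 6, with Plch2 at -0.99 and the calcium pump gene Atp2b1 at -0.67, and 1 of each list rose. The horizontal cell markers did not fall. Lhx1 (-0.03, at background) and Onecut1 (0.19, in part at background) did not pass, and Onecut2 (0.58, at background in both groups) was called higher. None of the starburst genes rose without Rb KO replicate 2 or WT replicate 1.

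Ganglion cell and axon genes rose in 8 and fell in 14 of 35 cases, and 9 fell without Rb KO replicate 1 and 8 without Rb KO replicate 2. Among the members that rose were genes of young neurons, the microtubule protein gene Dcx at 0.53 and the RNA-binding protein gene Elavl3 at 0.44. The members that fell include genes of mature ganglion cells. Chrna6 read 10.65, 10.75 and 10.40 in WT and 8.63, 8.89 and 9.50 in Rb KO (-1.59 (SE 0.21, adjusted p = 0.000335)), and the synuclein gene Sncg read 11.37, 11.34 and 11.11 and 10.35, 10.23 and 10.81 (-0.81 (SE 0.14, adjusted p = 0.00215)). Mapt (0.01) and Map1b (-0.06) did not pass.

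Among receptors for inhibitory transmitters Glra2, a glycine receptor subunit gene, rose and read 9.63, 10.05 and 9.84 in WT and 10.88, 11.23 and 10.68 in Rb KO (1.09 (SE 0.15, adjusted p = 0.000377)). Glra1, of the same family, was at background in Rb KO and fell (readings 8.51, 8.68 and 8.34 in WT and 7.17, 7.09 and 7.61 in Rb KO, adjusted p = 0.00155). Glra3 (-1.12, in part at background) and Glra4 (-1.53, at background in both groups) were also called lower. Over the list 3 of 20 GABA and glycine receptor genes rose and 8 fell. Of 21 glutamate receptor genes 2 rose, the kainate receptor genes Grik3 (1.56, in part at background) and Grik2, and 7 fell. The AMPA receptor gene Gria1 stood at -0.62 (SE 0.1, adjusted p = 0.00151). The call of Grik2 (0.61) ended with the control separation as a covariate (adjusted p = 0.0737).

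Potassium channel genes fell in 18 of 34 cases and 1 rose, with the large-conductance channel gene Kcnma1 at -0.85 and Kcnh5 at -0.93. Sodium and calcium channel genes rose in 3 and fell in 6 of 21, beside 10.2% and 14.3% of all genes. Their rises were 1 without Rb KO replicate 1 or 2 or WT replicate 1 or 3, and 5 without WT replicate 2.

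The 3 Rb KO arrays did not lie at the same distance from WT. The gap of replicate 3 was taken as its value minus the mean of replicates 1 and 2, over members above background on all arrays of at least 1 group. It was a median of 0.79 for the rod cascade, where replicate 3 was the highest Rb KO array in 9 of 9 genes, and 0.74 for the ON bipolar cascade (14 of 16 genes). It was 0.58 for recovery genes (14 of 15), 0.53 for outer segment structure (17 of 17) and 0.37 for cones (11 of 13). For these lists replicate 3 lay between WT and the other Rb KO arrays. Over all 7329 such genes the median gap was 0.01, and replicate 3 was the highest Rb KO array in 34.8% of them. Over the 1761 of them that fell the gap was 0.14 and replicate 3 was the highest in 67.7%, and over the 1394 that rose the gap was -0.14 and replicate 3 was the highest in 5.81%.

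Genes that rose leaned the other way, so that replicate 3 was again the nearest to WT. The gap was -0.32 for mitotic kinesins, -0.30 for licensing, -0.26 for the fork, -0.36 for NFI and Sox factors and -0.29 for progenitor genes. In none of these 5 lists was a bright member highest in replicate 3. The gap is not scaled to the size of a list's change. It was -0.01 for vessel genes, 0.01 for clock genes, 0.09 for glycolysis genes and -0.05 for spliceosome genes. The medians of their bright members without replicate 3 were -0.39, -0.33, -0.335 and 0.227, against 3.02 for mitotic kinesins and 2.455 for licensing. Retinoid genes had a gap of 0.33 and horizontal cell genes 0.16. Replicate 3 was the highest Rb KO array in 2 of 31 spliceosome genes and 6 of 6 horizontal cell genes. Without replicate 3 the median of the rod cascade was -1.56 and that of replicate 3 alone -0.85, against -1.31 for all 3 arrays. For the ON bipolar cascade the bright members gave -1.25 without replicate 3 and -0.56 in replicate 3 alone. The separation of control probe sets on replicate 3 (area under the curve 0.935) was that of replicate 2 (0.935), against 0.928 for replicate 1 and 0.932 to 0.954 in WT. Phagocyte genes also had a gap, -0.44 over 4 bright members, and Csf1r read 8.58, 8.66 and 8.07 in Rb KO. The lens markers were mixed, and none was called. Cryaa read 7.91, 7.65 and 8.57 in Rb KO and Crybb1 8.30, 8.10 and 8.58, near background. Crygs (5.64, 5.42 and 5.46) and Mip (7.02, 6.90 and 6.98), at background, were not highest in replicate 3. Why this array differed was not tested.

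**Figure D4:**
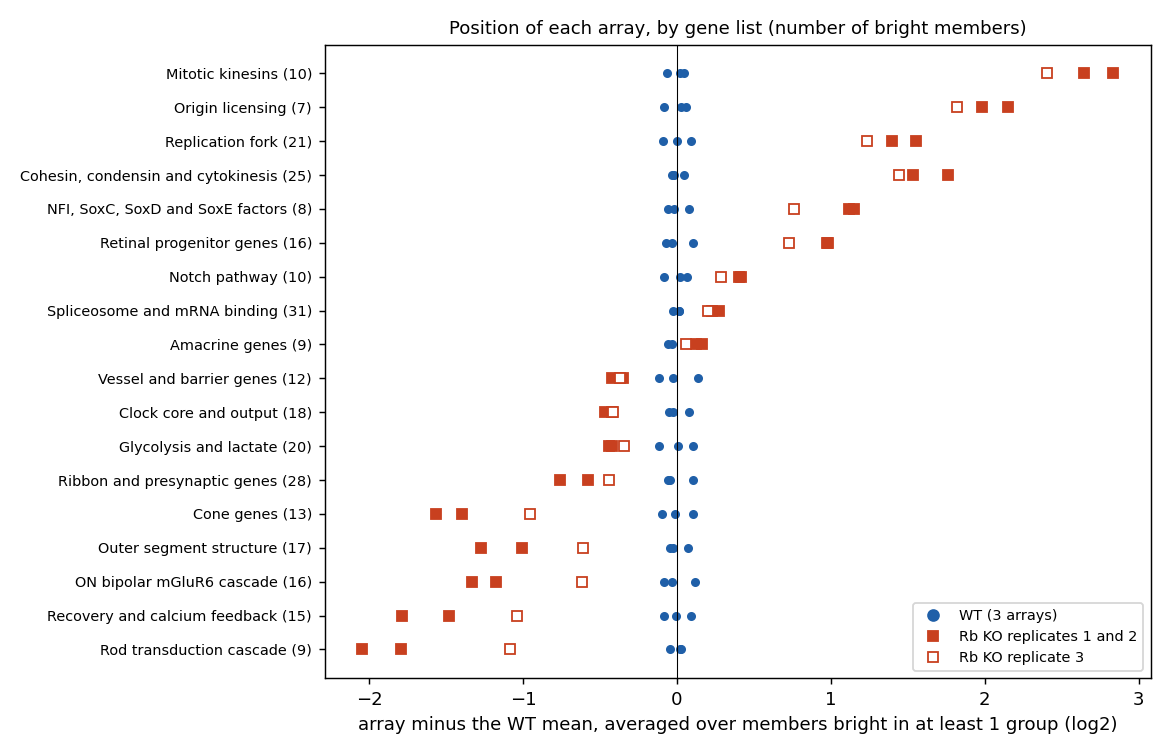
Mean over the bright members of 18 gene lists of each array's log2 intensity minus the WT mean; circles are the 3 WT arrays, filled squares Rb KO replicates 1 and 2, open squares Rb KO replicate 3, and numbers in brackets the bright members. The open square lies nearer to the WT circles than both filled squares for photoreceptor, ON bipolar, cell cycle and progenitor lists, and within 0.10 of them for vessel, clock and glycolysis genes.

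Muller glia genes split as well, 5 up and 9 down of 24. Sox9, Hes1, Sox8 and Nfix, which rose, are also progenitor genes. Among the falls were genes of mature glia, with Clu, the secreted chaperone clusterin, at 10.56, 10.73 and 10.37 in WT and 9.35, 8.95 and 9.44 in Rb KO (-1.30 (SE 0.16, adjusted p = 0.000186)) and the retinoid carrier gene Rlbp1 at -0.73. Aqp4, the water channel of their end feet, was at background in Rb KO and fell (-0.95 between readings). Of 22 gliosis genes 4 rose and 3 fell, near the shares of all genes (10.2% and 14.3%), and 11 were at background in both groups. The metallothionein genes Mt1 and Mt2 rose by 0.89 and 1.01, while Socs3 (0.13), Edn2 (0.03) and Serpina3n (0.33) did not pass. Gfap, the intermediate filament of reactive glia, read 7.86, 7.99 and 7.61 in WT and 7.27, 7.26 and 7.42 in Rb KO, above the background percentile only on WT replicate 2, and the call as lower ended without any Rb KO replicate or WT replicate 1 or 2 or with the replicate block or with the control separation as a covariate (adjusted p = 0.0598 to 0.338).

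Vessel and barrier genes fell in 23 of 44 cases and 2 rose (median -0.35). Most of the falls lie at background: over the whole list the mean reading was 7.78 to 8.00 on the WT arrays and 7.45 to 7.53 on the Rb KO arrays. Vtn, which encodes vitronectin, fell at least 3.46-fold and the caveolin gene Cav1 at least 2.07-fold. The receptor gene Lrp5, which vessels need to enter the deeper retina, rose (0.78, in part at background). The fall count was 11 with the control separation as a covariate and 7 of 13 with dim probe sets left out, and 1 gene rose without Rb KO replicate 1 or 2 or WT replicate 1 or 3.

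Of 24 melanin and pigment epithelium genes 15 fell and 2 rose. The mean over the list was 7.55 to 7.79 in WT and 6.93 to 7.06 in Rb KO. Of the defining markers Tyr was at background on all arrays, Tyrp1 was above it on some WT arrays, and Pmel was above it on all WT arrays and no Rb KO array. Some of these genes, such as Trpm1 and Rgr, are also expressed in the neural retina or its glia. The part of attached pigment epithelium in the fall of retinal genes was not tested. Without Rb KO replicate 1 or 2 or WT replicate 1 or 3, 1 gene of the list rose. None of 18 lens and cornea genes passed.

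Phagocyte and microglia genes rose in 11 of 31 cases and 1 fell, but 8 of the rises were at background in both groups, and Tmem119, Aif1 and Cx3cr1, markers of resident microglia, were at background on all 6 arrays. C1qb, the complement subunit of microglia, read 7.84, 7.97 and 7.76 in WT and 9.55, 9.63 and 8.68 in Rb KO (SE 0.22, adjusted p = 0.000827). Its Rb KO arrays lay above the WT arrays. The 1 fall was Gas6, a ligand that bridges dying cells and the phagocyte receptors Axl and Mertk, which read 10.39, 10.62 and 10.26 in WT and 9.36, 9.11 and 9.28 in Rb KO (-1.18 (SE 0.12, adjusted p = 4.68e-05)). Rises were 6 without Rb KO replicate 1 or without Rb KO replicate 2 and 7 without WT replicate 1 or without WT replicate 3. Interferon-stimulated genes were at background in both groups but for 1 of 23; 8 were called lower, 4 without Rb KO replicate 1 and 5 without Rb KO replicate 3. With the control separation as a covariate 2 were called lower, and with dim probe sets left out 0 of 2. Of 19 chemokine and cytokine genes 1 rose and 4 fell, beside 10.2% and 14.3% of all genes. Il33, an alarmin of Muller glia, fell at least 2.02-fold. The count of rises in this list was 0 without Rb KO replicate 1 or WT replicate 3 and 2 without Rb/p107 DKO replicate 2 or 3. Ulbp1, a stress ligand for natural killer cells, rose at least 2.7-fold, while the MHC class I gene H2-D1, in part at background, fell (-0.89), a call that ended with the control separation as a covariate (adjusted p = 0.094).

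Of 25 genes of glycolysis and lactate 14 fell and none rose, with 9 falls without Rb KO replicate 2 and 7 with the control separation as a covariate. Hk1, the hexokinase of neurons, read 10.35, 10.39 and 10.29 in WT and 9.43, 9.28 and 9.63 in Rb KO (-0.89 (SE 0.11, adjusted p = 0.000172)). Aldoc, the aldolase of brain and retina, stood at -0.98, the neuronal enolase gene Eno2 at -0.98 and the glucose transporter gene Slc2a3 at -0.69. The widely used isozyme genes Gapdh (0.02), Tpi1 (0.09) and Ldha (-0.12) did not pass. Complex I genes fell in 10 of 26 cases and genes of complexes II to V in 15 of 38, in small steps. The former count was 4 without Rb KO replicate 2, 6 without WT replicate 1 and 1 with the control separation as a covariate. The latter was 5 without Rb KO replicate 2 or without WT replicate 1, 8 without Rb KO replicate 1 and 4 with that covariate.

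In a list of 20 lipid genes 3 rose and 7 fell. The desaturase genes Fads1 and Fads2 rose by 0.73 and 0.54 and the fatty acid synthase gene Fasn by 0.61, while Elovl4, which makes the very long chains of photoreceptor discs, read 12.66, 12.70 and 12.64 in WT and 11.98, 11.87 and 12.28 in Rb KO (-0.63 (SE 0.11, adjusted p = 0.00229)). Cds1, of phosphoinositide synthesis in photoreceptors, fell at least 2.41-fold.

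RNA-binding and spliceosome genes rose in 17 of 34 cases and 1 fell (median 0.23), and 8 rose without Rb KO replicate 2. Ptbp1, which holds back neuronal exons, read 9.52, 9.73 and 9.54 in WT and 10.64, 10.58 and 10.45 in Rb KO (0.96 (SE 0.087, adjusted p = 2.73e-05)). Srrm4, which promotes neuronal microexons, rose too (0.49), and the progenitor gene Msi2 was the fall (-0.48 (SE 0.064, adjusted p = 0.000344)), with Msi1 at 0.07 not passing. Of 31 ribosomal protein genes 5 rose and 1 fell, a median of 0.10, beside 10.2% and 14.3% of all genes. Among the 22 measured on both sides 2 rose and 1 fell, against 16.7% and 21% of all genes so measured. The rises over the list of 31 ran from 1 without Rb KO replicate 1 to 8 without WT replicate 2.

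Clock genes fell in 12 of 22 cases and rose in 2. Dbp, an output factor of the clock, read 10.37, 10.51 and 10.21 in WT and 9.52, 9.43 and 9.60 in Rb KO (-0.84 (SE 0.1, adjusted p = 0.000241)), and Cry1 stood at -0.44, while the core genes Arntl (-0.02), Clock (-0.04) and Per1 (-0.09) did not pass. Drd4, a dopamine receptor gene of photoreceptors with a daily rhythm, fell at least 4.77-fold. The time of day of collection is not given in the labels. Of 29 immediate early genes 10 rose and 5 fell, with Klf10 at 1.05 and Jun at 0.81. The count of falls was 3 without Rb KO replicate 2 or WT replicate 1. Clock rises were 1 without Rb KO replicate 2 or WT replicate 1.

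**Figure D5:**
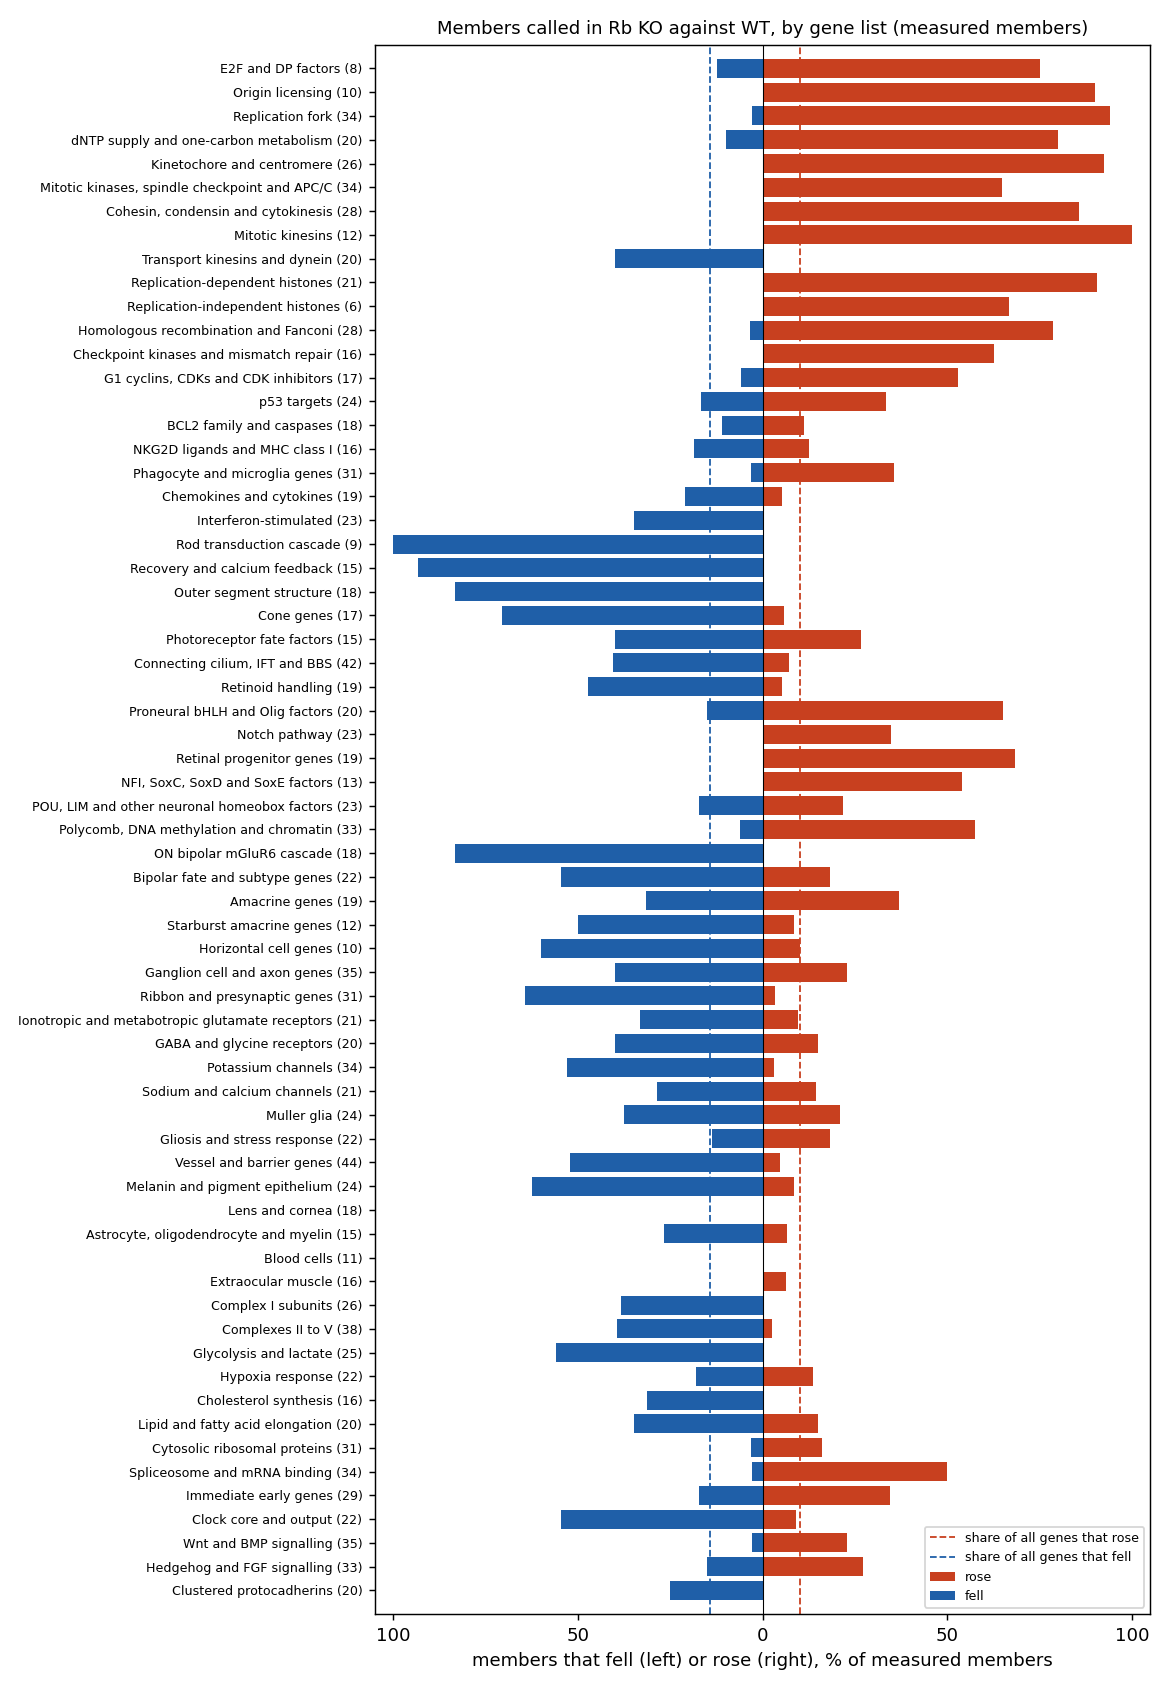
Share of the measured members of each gene list that rose (red, to the right) or fell (blue, to the left) in Rb KO against WT, in percent, with the number of measured members in brackets and dashed lines at the shares of all genes (10.2% rose, 14.3% fell). Cell cycle and histone lists extend to the right, photoreceptor, bipolar and ribbon synapse lists to the left, and lens and blood cell lists have no bar.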

How the data were processed

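The 9 arrays of P8 mouse retina were deposited as 1 table of log2 intensities, which the authors had made by RMA (background correction, quantile normalization and probe set summary) per the submitters' processing notes. RMA assumes like intensity distributions on all arrays and compresses dim differences. The software version and annotation build are not given in the sources used here. All 3 groups had 3 arrays, and this number limits the precision.

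Of 52917 transcript clusters 24646 had 1 gene symbol, and 658 symbols were updated through the RefSeq gene table. The means of all 3 groups were fitted in limma 3.58.1 (R 4.3.3, moderated variances with 4.69 prior and 6 residual degrees of freedom). P-values were adjusted by Benjamini and Hochberg's method over 24259 genes, and SE stands for the standard error of the difference. The fit was tested on simulated data.

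The members and the 66 gene lists (1332 of 1928 genes measured) were chosen with earlier results of these data known, and no list was tested as a set. The text names the 15 largest rises and falls measured on both sides, the 10 largest lower bounds in each direction but for 1 fall, a part of the up to 4 called members per list each way with the lowest p, and other list members to account for a list. Alternatives were a fit of 6 arrays, the mean of probe sets, renewed quantile normalization, trended robust variances, a filter on dim probe sets, a replicate block, each array left out, and a covariate for control separation (an array's area under the curve of positive against negative control probe sets). Leaving Rb KO replicate 3 out of list medians was chosen after the data were seen. Figures were drawn with matplotlib 3.10.9.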

Additional observations from a re-analysis of the deposited data

Results flagged for a closer look

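Outside the genes with a single symbol lay 28271 transcript clusters with several symbols or none listed. A separate limma fit of the same form took all 52917 transcript clusters, with p-values adjusted over them. In it 1469 of the 28271 rose and 1597 fell, beside 2465 and 3458 of the 24259 genes in the main fit. Among the rises 42 went from background on every WT array to above background on all 3 Rb KO arrays. The reverse held for 72 that fell. These 42 clusters lie in data that the comparisons above do not use, and they are unnamed here.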

How the results depend on the processing

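Counts of rises and falls, 2465 and 3458 as reported, were 2010 and 2510 in the fit of 6 arrays, 2972 and 2912 with renewed quantile normalization and 1856 and 2164 of 7843 genes with a filter on dim probe sets. With the control separation as a covariate they were 2084 and 2220. Leaving out each array gave 1820 to 2712 rises and 2223 to 4067 falls. The lowest pair came without Rb KO replicate 2, where 2184 of the falls were shared with the reported ones. With the replicate block the counts were 2310 and 3143. No pairing by replicate number was seen. Deviations from the group means correlated at 0.145, -0.011 and -0.072 between same-numbered WT and Rb KO arrays, and at -0.108 to 0.122 between others. With 3 arrays per group these values cannot decide whether samples were paired. A change of direction was counted only where the gene was called in the reported or the altered fit. Rb1 turned to 0.68 with the mean of its probe sets. By that count no other gene chosen for its size, list rank or target role changed direction under the settings run. Of these 303 genes 40 lost their call with the control separation as a covariate and 5 with the replicate block. With the covariate, which also differs between the groups, list falls were 3 of 12 for starburst, 3 of 10 for horizontal cell, 5 of 35 for ganglion cell, 13 of 31 for presynaptic, 4 of 20 for GABA and glycine receptor and 2 of 33 for Hedgehog and FGF genes. They were 1 of 20 for proneural, 3 of 21 for sodium and calcium channel, 4 of 20 for lipid and 3 of 29 for immediate early genes, and 0 for neuronal homeobox, chromatin, gliosis and Wnt and BMP genes. Rises were 2 of 15 for photoreceptor fate, 4 of 19 for amacrine, 6 of 31 for phagocyte, 11 of 34 for spliceosome, 3 of 23 for homeobox, 8 of 31 for ribosomal protein and 1 of 22 for clock genes. In the fit of 6 arrays 5 of 26 complex I genes and 8 of 38 of complexes II to V fell, 11 spliceosome, 2 ribosomal protein and 2 chemokine genes rose, and 2 phagocyte genes fell. With renewed quantile normalization 9 ribosomal protein and 4 vessel genes rose and 1 chromatin gene fell. The filter on dim probe sets, which leaves fewer members, gave rises in 14 of 15 kinetochore, 7 of 8 S phase histone, 1 of 5 BCL2 family, 3 of 6 phagocyte, 0 of 1 chemokine, 0 of 7 horizontal cell, 1 of 10 GABA and glycine receptor and 6 of 16 immediate early genes. It gave falls in 1 of 5 BCL2 family, 1 of 1 chemokine, 2 of 12 homeobox, 2 of 10 amacrine, 2 of 6 starburst, 5 of 10 GABA and glycine receptor, 9 of 11 potassium channel, 6 of 8 pigment, 3 of 16 immediate early, 2 of 12 Wnt and BMP, 3 of 21 Hedgehog and FGF, 1 of 28 cohesin and 1 of 16 progenitor genes. For the motif shares of the lists and of all genes tested, the window without the 50 bases after the start is given in the text. Readings at background limit the sizes of most cell cycle rises.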

Other observations

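Gene copies that share sequence give readings that cannot be told apart. The predicted pseudogenes Gm13160, Gm13167, Gm13232 and Gm13237 of chromosome 4 stood at 2.52, 2.57, 2.58 and 2.58 in Rb KO against WT (limma, adjusted p = 6.94e-08 to 1.78e-07), with like readings on each array, and were chosen after their values were seen. Which expressed gene their probes read was not tested.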
